A study of Mus musculus with 6 samples.

Results

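The regions described here are RUNX1-bound intervals that lay at the end of a gene and were called both before and 6 h after an ovulatory dose of hormone in mouse granulosa cells. They were chosen by the peak calls themselves. Overlapping peaks (by at least 1 bp) of the replicate lists were merged within each time point, and only merged intervals with a peak of both replicates counted as replicated. A region was a member if its 6 h interval was under 2000 bp wide, overlapped a replicated 0 h interval, and had its summit, the position of highest signal in its strongest peak, within 1 kb of either end of a RefSeq gene. Of 17190 replicated 6 h regions, 292 met these conditions. Of all 6 h regions, 791 overlapped a replicated 0 h region, which is 4.60%. Among the 8593 narrow 6 h regions at gene ends the share was 3.40%, which is the 292 members.

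The cells were granulosa cells, the somatic cells that line the ovarian follicle, from CBA x C57BL/6 F1 mice aged 21 days. Every mouse had equine chorionic gonadotropin (eCG, 5 IU), which makes follicles grow, and the 6 h group had human chorionic gonadotropin (hCG, 5 IU) 46 h later, which stands in for the luteinising hormone surge. The 0 h group is given as pre-ovulatory cells at 0 h after hCG, although the treatment text of the labels is the same for both groups and describes only the 6 h collection. Each group had 2 RUNX1 ChIP libraries and 1 pooled input. The mice were immature and hormone-primed, and how many contributed to a library is not stated in the labels, so the spread between replicates may be technical. Peak lists carry no expression values, so the cell type could not be checked against its markers.

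RUNX1 binds DNA through its Runt domain as a heterodimer with CBFB, and it recognises short sites with the core TGTGGT or TGCGGT. It acts as an activator or a repressor depending on its partners. In the ovary it is induced in granulosa cells by the ovulatory surge, which signals through the luteinising hormone receptor and cyclic AMP. Promoters of widely expressed genes are rich in CpG and open in most cells, and many transcription factors give ChIP signal there.

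The promoter sequences bear on what the members share, because the letters of the DNA played no part in choosing them. The windows below are from 11 of the 12 highest-ranked members whose promoter holds the summit and has a RUNX match with full flanks within 50 bp of it, with Amotl2, a member from a gene list. They hold 10 bases on each side of the match and are read on the strand that carries it, with the match in capitals. Sequences are from RefSeq promoter windows on GRCm38.p6. From Pcyt1a to Amotl2 the match is TGTGGT, and from Fam53a on it is TGCGGT.
Pcyt1a, chr16:32430843-32430868, forward strand: tctgtcaggtTGTGGTtttcaggaat
Gatc, chr5:115341133-115341158, reverse strand: gcaaaagaaaTGTGGTcacgggccgc
Sfxn5, chr6:85333385-85333410, forward strand: ccgctgaggcTGTGGTtgctgtatcc
Zfp512, chr5:31452450-31452475, reverse strand: ctctcccggaTGTGGTctcagcggcg
Amotl2, chr9:102717688-102717713, forward strand: agaggttattTGTGGTtcgctttgat
Fam53a, chr5:33629623-33629648, reverse strand: gggcgtcggcTGCGGTtttgttccgc
Clptm1, chr7:19665179-19665204, reverse strand: acaaccaaatTGCGGTgaaaggggcg
Slc25a4, chr8:46211030-46211055, reverse strand: taaggagggcTGCGGTcaggcgggcg
Mrpl45, chr11:97315635-97315660, forward strand: gtgacagccgTGCGGTttaccctact
Ppp2r2d, chr7:138846215-138846240, reverse strand: acgtagccgcTGCGGTccaaggagag
Ppp3r1, chr11:17159317-17159342, forward strand: gccttgaggtTGCGGTcagcgcgagc
Birc2, chr9:7837093-7837118, reverse strand: cgttccaactTGCGGTgcgcgtctgc
The Ppp2r2d promoter belongs to the member named for Mapk1ip1, whose end is nearest. The match lay 0.5 bp from the summit at Amotl2, 4.5 bp at Ppp3r1, 10.5 bp at Pcyt1a and 43.5 bp at Clptm1. Pcyt1a makes a rate-limiting enzyme of phosphatidylcholine synthesis, Slc25a4 the adenine nucleotide carrier of mitochondria, Ppp3r1 the regulatory subunit of calcineurin and Birc2 an inhibitor of apoptosis.

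Longer stretches, the 250 bases before the gene start, are shown for the named members in which they crossed no annotated gene and held a match. Capitals again mark TGTGGT or TGCGGT on either strand, so that the reverse forms read ACCACA and ACCGCA.
Clptm1, chr7:19665031-19665280, reverse strand: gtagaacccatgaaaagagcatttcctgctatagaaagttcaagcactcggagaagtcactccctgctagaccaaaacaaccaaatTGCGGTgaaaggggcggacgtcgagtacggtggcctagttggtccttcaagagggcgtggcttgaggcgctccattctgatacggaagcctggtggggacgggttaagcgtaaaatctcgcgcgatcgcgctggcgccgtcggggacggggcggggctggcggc
Cdk4, chr10:127063285-127063534, forward strand: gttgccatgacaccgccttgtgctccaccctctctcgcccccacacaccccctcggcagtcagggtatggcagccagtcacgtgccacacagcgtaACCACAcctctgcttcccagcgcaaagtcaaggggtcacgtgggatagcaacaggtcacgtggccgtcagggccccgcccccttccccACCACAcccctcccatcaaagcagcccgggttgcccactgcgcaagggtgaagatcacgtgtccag
Hsp90b1, chr10:86705445-86705694, reverse strand: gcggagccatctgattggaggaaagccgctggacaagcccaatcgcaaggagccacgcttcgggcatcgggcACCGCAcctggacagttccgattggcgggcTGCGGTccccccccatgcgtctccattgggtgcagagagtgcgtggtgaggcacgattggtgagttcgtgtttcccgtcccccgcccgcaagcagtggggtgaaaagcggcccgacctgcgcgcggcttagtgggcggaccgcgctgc
The Cdk4 stretch held 2 RUNX matches and 4 copies of the E-box CACGTG, and the nearest RUNX match lay 40.5 bp from the summit. The Hsp90b1 stretch held 2 RUNX matches, the nearest at 21.5 bp, and 5 copies of the CCAAT box, the site of NFY. The Clptm1 stretch held 1 RUNX match and 2 copies of GGGCGG, the box bound by SP and KLF factors.

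RUNX letters were more frequent in the member promoters than in the promoters at other 6 h regions. Of the 211 promoters within 1 kb of a member's summit, 94 had TGTGGT or TGCGGT on either strand, or 44.5% (95% CI 37.7 to 51.5, exact binomial, counting error only). The share was 28.3% (25.6 to 31.1) of 1074 promoters at gene-end regions that had a 0 h peak but no replicated one, called here unreplicated 0 h binding. It was 21.2% (20.1 to 22.4) of 5001 promoters at gene-end regions with no 0 h peak, and 22.4% of all 32851 promoters in the table. Unlike the members, these other gene-end groups had no limit on width. The order of the bound groups was the same, and the gaps wider, where the window had to hold the summit, as in the shares that follow. Of 136 promoters that held a member's summit, 75 had a match, or 55.1% (95% CI 46.4 to 63.7). The share was 35.2% (31.3 to 39.3) of 571 promoters at unreplicated 0 h binding and 25.8% (24.0 to 27.6) of 2330 with no 0 h peak. These shares are descriptions of the letters and were not put to a test. Promoter windows reach from 250 bases before to 50 bases after a start, and the table has none from chromosome 18, which held 7 members.

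The form that contains a CpG made most of this difference. TGCGGT stood in 39.0% of the member promoters, in 22.8% of those at unreplicated 0 h binding, in 13.0% of those with no 0 h peak and in 6.45% of all promoters. TGTGGT stood in 21.3%, 15.2%, 13.8% and 16.8%. The 5-letter core TGTGG, which TGTGGT contains, stood in 52.2% of member promoters and 55.9% of all promoters. This shorter core thus did not set members apart, and that of the CpG form, TGCGG, was not counted. The same letters read backwards, TGGTGT or TGGCGT, have the same base composition, and stood in 22.8%, 22.8%, 20.8% and 20.3%. Their form with a CpG, TGGCGT, stood in 14.0%, 15.1%, 13.3% and 7.0%, so it was more frequent in bound promoters than in all promoters but about as frequent in each bound group. The median GC content was 63.7% in member promoters, 66.0% and 64.0% in the other bound groups and 52.7% in all promoters.

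**Figure D1:**
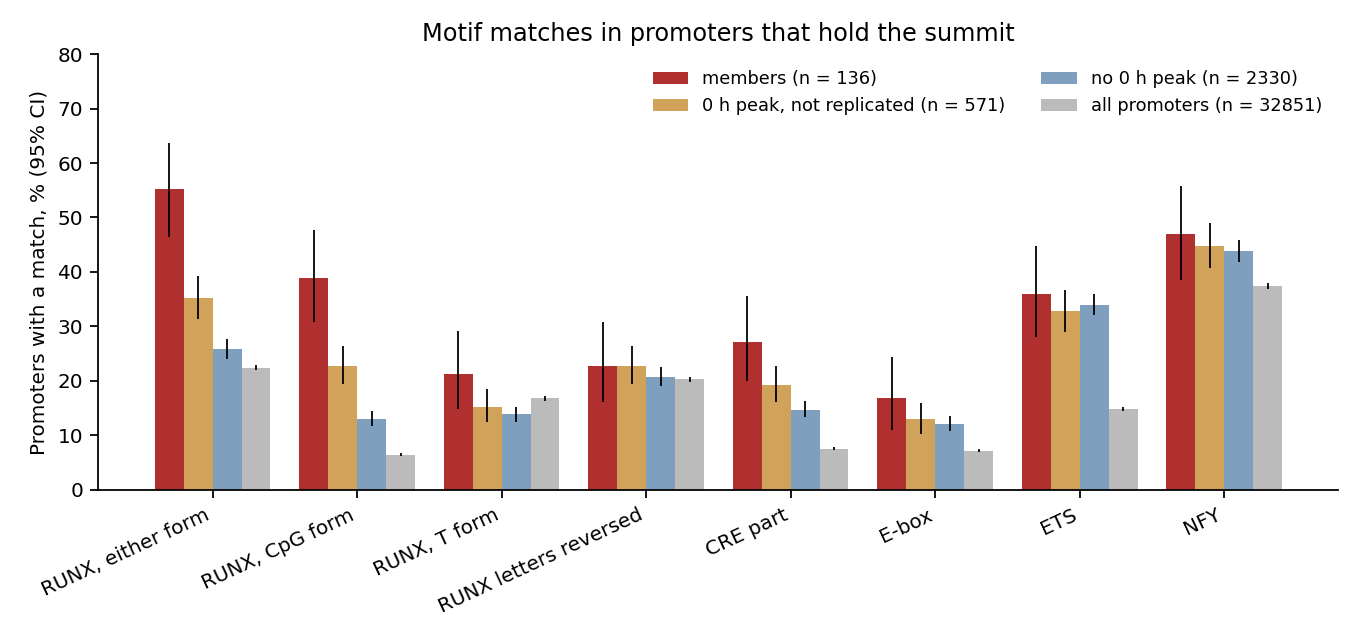
Share of promoters (%) with at least 1 match on either strand, for promoters that held the summit of a member (n = 136), of a gene-end region with unreplicated 0 h binding (n = 571) or of one with no 0 h peak (n = 2330), and for all promoters (n = 32851). Bars are shares and lines exact 95% confidence intervals; the RUNX share falls from 55.1% in members to 22.4% in all promoters, and the share of the reversed letters lies between 20.3% and 22.8% throughout.

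RUNX matches stood near the summit in a larger share of member promoters than of the other bound groups. A RUNX match lay within 50 bp of the 6 h summit in 45 of the 136 member promoters, or 33.1% (95% CI 25.3 to 41.7). The shares were 22.1% at unreplicated 0 h binding and 13.3% with no 0 h peak, while the reversed letters stood that near in 8.82%, 9.28% and 6.95%. These shares hold both how often a match occurs and how near it lies. Among promoters with a match, the median distance was 41.5 bp in members (45 of 75 within 50 bp), 34.5 bp at unreplicated 0 h binding (126 of 201) and 47.5 bp with no 0 h peak (310 of 601), so members' matches were not nearer than those at unreplicated 0 h binding. In members the nearest GGGCGG lay at a median of 40.5 bp and CCAAT at 38.5 bp, as near as the RUNX letters, and the reversed letters at 83.5 bp. Each library placed its own summit near the match. In the 75 member promoters with a match, the median distance from the library's own summit to the nearest match was 37.5 and 47.5 bp in the 0 h pair of libraries, and 38.5 and 41.5 bp in the 6 h pair.

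**Figure D2:**
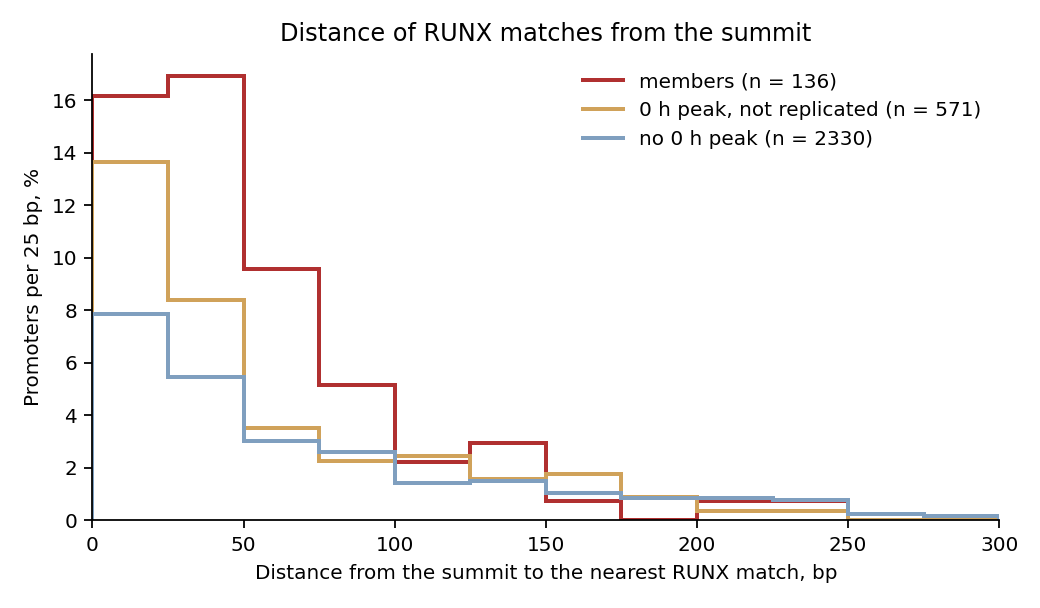
Distance in bp (x axis) from the 6 h summit to the nearest RUNX match, in 25 bp steps, as a share of the promoters in each group (y axis, %). The members have 16.2% and 16.9% of promoters in the 2 steps nearest the summit, against 7.85% and 5.45% for regions with no 0 h peak.

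Rank within the 6 h lists moved with the letters as well. Among regions at percentile 90 or above of fold in both 6 h lists, a ranking by the fold enrichment of the peak over its local background, 43 of 63 member promoters held RUNX letters, or 68.3% (95% CI 55.3 to 79.4). In the same rank band the share was 49.2% (40.1 to 58.3) of 124 promoters at unreplicated 0 h binding and 45.3% (32.8 to 58.3) of 64 with no 0 h peak. Below that band the shares were 43.8% (95% CI 32.2 to 55.9), 31.3% (27.0 to 35.8) and 25.2% (23.5 to 27.1). The intervals of the top band overlap between the groups. Between the top band and the rest they overlap slightly in members and not in the other groups. Within the members, the 75 promoters with RUNX letters had a higher median percentile than the 61 without in 3 of 4 libraries. The medians were 37.2 and 43.4 in 0 h replicate 1, 82.0 and 79.7 in 0 h replicate 2, 93.4 and 85.8 in 6 h replicate 1, and 92.8 and 87.4 in 6 h replicate 2. The mean difference of 2.26 points was smaller than its spread over libraries (SD 6.04, exact permutation test by sign flips, two-sided, p = 0.5, adjusted p = 0.667, n = 4 libraries).

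The other elements are given for the same groups, in the same order. The cyclic AMP response element core TGACGT, the site of CREB and ATF factors, stood in 27.2% (95% CI 19.9 to 35.5) of member promoters, 19.3% (16.1 to 22.7) at unreplicated 0 h binding, 14.7% (13.3 to 16.2) with no 0 h peak and 7.51% of all promoters. Its full form TGACGTCA, which contains that core, stood in 9.56%, 7.36%, 4.55% and 1.79%. Unlike the RUNX letters, TGACGT was not more frequent at higher rank in members (20.6% at percentile 90 or above and 32.9% below). The E-box CACGTG stood in 16.9%, 13.0%, 12.1% and 7.15%, the ETS core CCGGAA in 36.0%, 32.7%, 33.9% and 14.9%, and CCAAT in 47.1%, 44.8%, 43.9% and 37.4%. CCAAT lay within 50 bp of the summit in 30.1% (22.6 to 38.6) of member promoters, 20.8% and 21.1% of the other bound groups. The AP-1 site TGANTCA was rare at 3.68%, and stood in 4.20%, 4.81% and 7.81% of the other groups. The site AAGGTCA of the NR5A receptors stood in 8 of 136 member promoters (5.88%, 95% CI 2.57 to 11.3), in 1.75% (0.84 to 3.20) at unreplicated 0 h binding, in 2.49% (1.90 to 3.21) with no 0 h peak and in 4.72% of all promoters. Its share was thus higher in members than in the other bound groups, on few matches and with overlapping intervals. Some elements were less frequent in members than in either of the other bound groups, with overlapping intervals. GGGCGG stood in 69.9%, 78.5% and 75.1% of the bound groups and in 35.7% of all promoters, GGGTGG in 32.4%, 37.8%, 35.5% and 31.5%, and the TEAD site GGAATG in 7.35%, 9.28%, 9.87% and 14.7%. The YY1 site AAGATGGC was close between the bound groups, at 4.41%, 4.73% and 5.49%, and stood in 2.75% of all promoters. The NRF1 site GCGCNTGCG (19.9%, 20.5%, 19.4% and 6.31%), TCTCGCGA (2.94%, 3.85%, 2.92% and 0.995%) and the FOX site TGTTTAC (2.94%, 3.15%, 2.32% and 3.65%) were close between the bound groups. The remaining sites rested on 7 to 13 member promoters each. They were a little more frequent in members than in the other bound groups, with overlapping intervals, but less frequent than in all promoters. They were CATGTG (8.09%, 4.55%, 7.25% and 14.2%), the C/EBP site TTGCNNAA (9.56%, 7.71%, 7.68% and 10.8%), the GATA site AGATAA (5.15%, 2.98%, 4.12% and 11.2%), TATAAA (6.62%, 3.68%, 4.59% and 13.6%) and the heat shock site GAANNTTC (7.35%, 3.85%, 4.64% and 7.86%).

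Members lay mostly at gene starts. The promoter table gave the direction of the nearest gene for 227 members, and the nearest end was the start in 206 of them, or 90.7% (95% CI 86.2 to 94.2). It was the finish in 21, and for 65 members the direction was not known. As a share of all members, starts made up 70.5%, against 77.9% at unreplicated 0 h binding and 73.0% with no 0 h peak, and finishes 7.19% against 3.61% and 4.19%. The summit lay a median of 123.5 bp from the nearest end (range 1 to 903), with 126 of 292 summits within 100 bp. Summits leaned to the side before the start. Of the 211 members with a start of the promoter table within 1 kb, 124 (58.8%) had the summit before it, at a median of -27 bp, while the median was -2 bp at unreplicated 0 h binding and 33 bp inside the gene with no 0 h peak. The nearest gene was protein-coding for 236 members and a long non-coding RNA gene for 39, and 32 members had at least 2 coding starts within 1 kb.

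**Figure D3:**
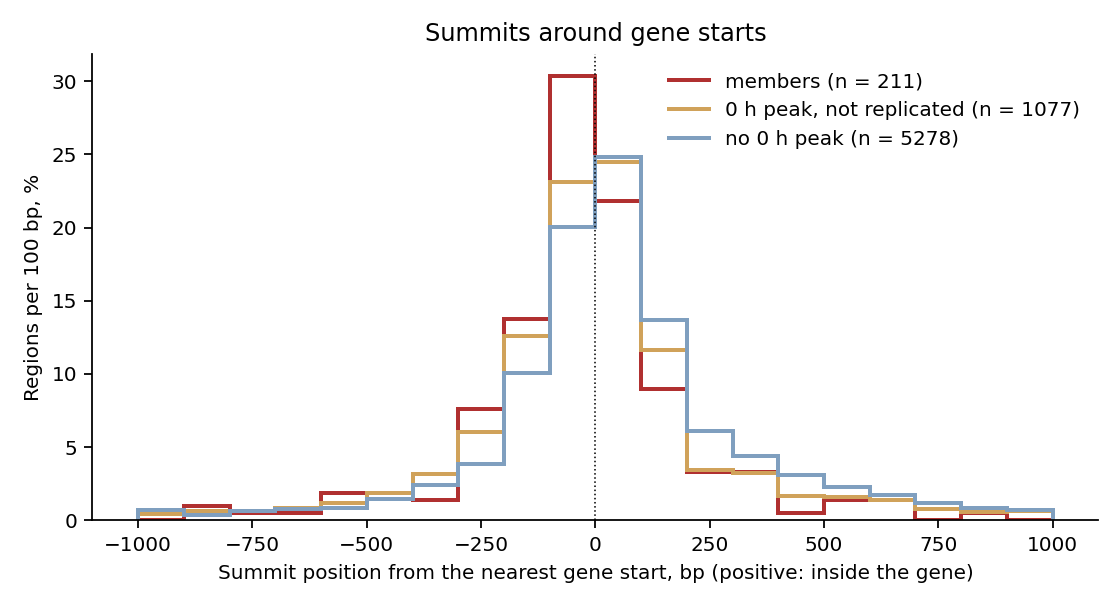
Position of the 6 h summit from the nearest gene start in bp (x axis, positive inside the gene), in steps of 100 bp, as a share of the regions in each group (y axis, %). Members (n = 211) peak in the step just before the start at 30.3%, and regions with no 0 h peak (n = 5278) in the step just after it at 24.8%.

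Signal at the members was compared over the libraries with a scaled value, the pileup of reads at the summit divided by the genome-wide background of the library. Both were recovered from the deposited fold and p-value of each peak. The lists held 948 and 3135 peaks at 0 h and 18761 and 28671 at 6 h, with genome-wide backgrounds of 2.77, 2.65, 2.76 and 2.13 reads. These backgrounds were solved from the peak lists and are no count of reads, so the part of depth in the number of peaks was not tested. The members' median was 12.6 times background in 0 h replicate 1 and 17.7 times in replicate 2, and 49.8 times in 6 h replicate 1 and 73.4 times in replicate 2. Pileup was higher in both 6 h libraries than in both 0 h libraries at 277 of 292 members (94.9%), against 91.3% of all 791 shared regions. It was lower in both at 0 members and at 0% of the shared regions. The remaining 15 members had overlapping values. The median difference between the time points was 2.00 on the log2 scale (range -0.38 to 3.08), and 1.59 at the 430 narrow shared regions away from gene ends. This value leaves out the local background. At the median member that was 1.35 times the genome-wide value at 0 h and 2.33 times at 6 h, in each library. At the distal regions it was 1.30 and 1.75 times. The fold, which is over the local background, had medians of 7.10 and 9.68 at 0 h against 18.3 and 26.6 at 6 h in members. At the distal regions the medians were 8.49 and 9.57 against 17.5 and 29.2. The part of local background in the difference was not tested. Since the members were chosen by calls at both times, these values describe them and carry no test. Whether the higher pileup at 6 h reflects more binding was not tested. More bound cells and more binding per cell cannot be told apart in such bulk samples either.

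**Figure D4:**
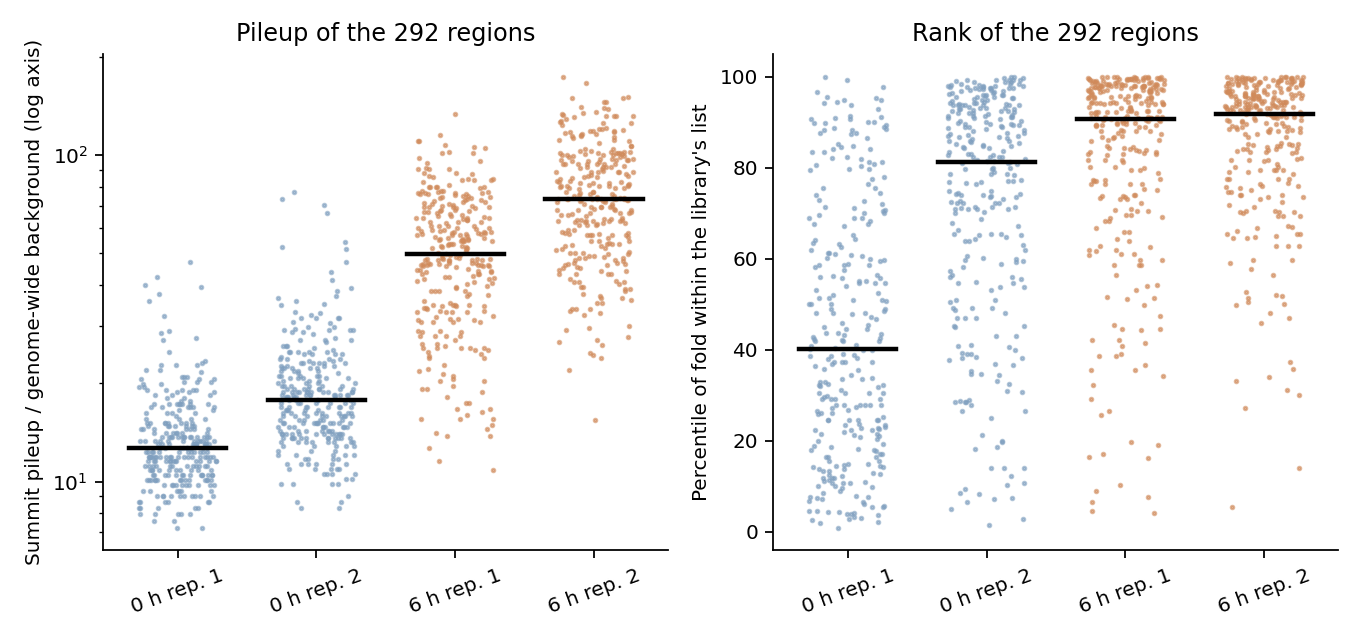
Values of the 292 members in each library: summit pileup over the genome-wide background (left, log axis) and percentile of fold within the library's own list (right). Points are regions and bars medians; the median pileup is 12.6 and 17.7 at 0 h against 49.8 and 73.4 at 6 h, and the median percentile is lowest in 0 h replicate 1, at 40.1.

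The peaks were wider at 6 h around a nearly fixed summit. The median peak width of the members was 267 and 452.5 bp in the 0 h lists and 966 and 1022.5 bp in the 6 h lists, and the 6 h region was wider than the replicated 0 h region at 290 of 292 members (99.3%). It was wider at 413 of 430 distal regions (96.0%) and 772 of all 791 shared regions (97.6%), so nearly all shared regions had this pattern. The summits of the 0 h and 6 h regions lay a median of 30.5 bp apart, with 250 of 292 within 100 bp, and a median of 25 bp apart at the distal regions. Between replicates the median distance was 39.5 bp in the 0 h pair and 22 bp in the 6 h pair, so the shift between time points was no larger than that between the 0 h replicates.

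Rank was kept within a time point more than between them. The percentile of fold had a median of 40.1 in 0 h replicate 1 and 81.2 in replicate 2, against 90.7 and 91.8 in the 6 h lists. Across the 292 members, Spearman's rho of the fold was 0.913 between the 6 h replicates, 0.656 between the 0 h replicates and 0.264 to 0.418 between libraries of different times. At the 430 distal shared regions it was 0.937, 0.696 and 0.193 to 0.318, so this pattern was not particular to members. These are descriptions, since replicates share an input and the lists differ in length. At percentile 90 or above lay 138 members in both 6 h lists and 17 in both 0 h lists, and 15 did so in all 4.

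Members were compared with the 430 narrow shared regions away from gene ends over the libraries. The smallest p these designs allow is 0.125 over 4 libraries and 0.333 for 2 against 2, so none could pass 0.05, and the p-values do not show that the groups are alike. The median percentile of members minus that of the distal regions was -21.9 in 0 h replicate 1 and 0.94 in replicate 2, against 1.20 and -1.79 in the 6 h libraries. The mean of -5.39 was within the spread (SD 11.1, exact permutation test by sign flips, two-sided, p = 0.625, adjusted p = 0.667, n = 4 libraries), and 0 h replicate 1 stood apart from the other 3. The log2 pileup over background differed by 0.079 (SD 0.23, exact permutation p = 0.625, adjusted p = 0.667) over the 292 members. Without 0 h replicate 1 the value was -0.068, but the members then numbered 1552, so the library and the set of regions changed together. The log2 peak width differed by 0.32 (SD 0.22, n = 4 libraries), with members wider in 3 libraries and equal in 0 h replicate 1. The rule limited the width of the 6 h regions in both groups, so the widths are selected values and this difference is a description. The members-minus-distal difference in percentile was 10.2 points higher at 6 h than at 0 h (exact permutation test, 2 against 2, p = 0.667, adjusted p = 0.667), and that in log2 pileup 0.26 higher (exact permutation p = 0.667, adjusted p = 0.667). The local background that enters the fold was 1.35 times the genome-wide value at the median member in each 0 h library and 2.33 times in each 6 h library, against 1.30 and 1.75 times at distal regions. Its part in the ranks was not tested.

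The members with the highest mean percentile over the 4 libraries began with Kmt2a, which encodes a histone methyltransferase (chr9:44881216-44882285, summit 111 bp from the gene start and inside the non-coding gene Gm39326). Its fold was 28.8 and 51.8 in the 0 h replicates and 54.0 and 102 in the 6 h replicates, the highest fold of the list in 0 h replicate 2 and in 6 h replicate 2. Its pileup was 40.1 and 73.1 times background at 0 h against 73.2 and 150.0 times at 6 h, so the higher 0 h library nearly reached the lower 6 h library. The Gm40278 region followed (chr5:33040790-33041518), and there the 0 h values of 42.2 and 77.3 overlapped the 6 h values of 72.4 and 91.9. Fam53a, whose start region also held an end of Gm9903 (chr5:33628760-33630160), had 39.3 and 54.3 at 0 h against 134 and 174 at 6 h, with all 6 h values above all 0 h values. Lamtor5, a subunit of the Ragulator complex on lysosomes, had 20.9 and 31.7 at 0 h against 82.9 and 119 at 6 h. Clptm1 had 18.4 and 21.5 at 0 h against 65.2 and 102 at 6 h. The others of the highest 10 were the deubiquitinase gene Otud6b, Wdr13, the methionine tRNA gene n-TMcat13, the homeobox gene Mkx and Brpf1, a scaffold of histone acetyltransferase complexes. Their log2 differences between the time points ran from 1.38 (Mkx) to 2.30 (Brpf1), against 0.95 at Kmt2a and 0.51 at Gm40278.

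Ranks at 0 h and 6 h parted most at 2 sets of 5 members, chosen by the size of that gap and so described with no test. The 0 h lists are far shorter than the 6 h lists, so a gap in percentile is a place within lists of unequal length and shows no change in binding. High at 0 h and low at 6 h were Acbd4, an acyl-CoA-binding protein gene, Acin1, whose product takes part in splicing, Yipf6 of the Golgi membrane, the dynein heavy chain gene Dnah6 and Cyp1b1, a cytochrome P450 that hydroxylates oestradiol. Acbd4 stood at percentile 95.5 and 97.9 in the 0 h replicates and at 8.87 and 49.8 in the 6 h replicates. Its pileup was 20.6 and 23.4 times background at 0 h against 11.6 and 24.4 times at 6 h, which overlap. Cyp1b1 stood at percentile 61.3 and 70.8 before hCG against 4.14 and 14.1 after it, while its pileup was 13.7 and 13.9 at 0 h against 25.4 and 36.6 at 6 h. At the other 3 the log2 difference in pileup was 0.93 (Acin1), 0.54 (Yipf6) and 0.31 (Dnah6), with overlapping values at the last pair. None of the 5 had both 6 h pileups below both 0 h pileups. Low at 0 h and high at 6 h were Txndc2, the lipid kinase gene Pik3c2a, Ppp1r3c, which targets protein phosphatase to glycogen, the histone gene H4c8 with n-TMcat9 nearby, and Arl6ip1 of the endoplasmic reticulum. Ppp1r3c stood at percentile 3.90 and 8.26 at 0 h and at 98.2 and 96.3 at 6 h, with a pileup of 14.1 and 17.3 against 90.9 and 119 times background. Pik3c2a had 7.58 and 10.9 times at 0 h against 59.8 and 87.2 at 6 h, a log2 difference of 2.99.

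**Figure D5:**
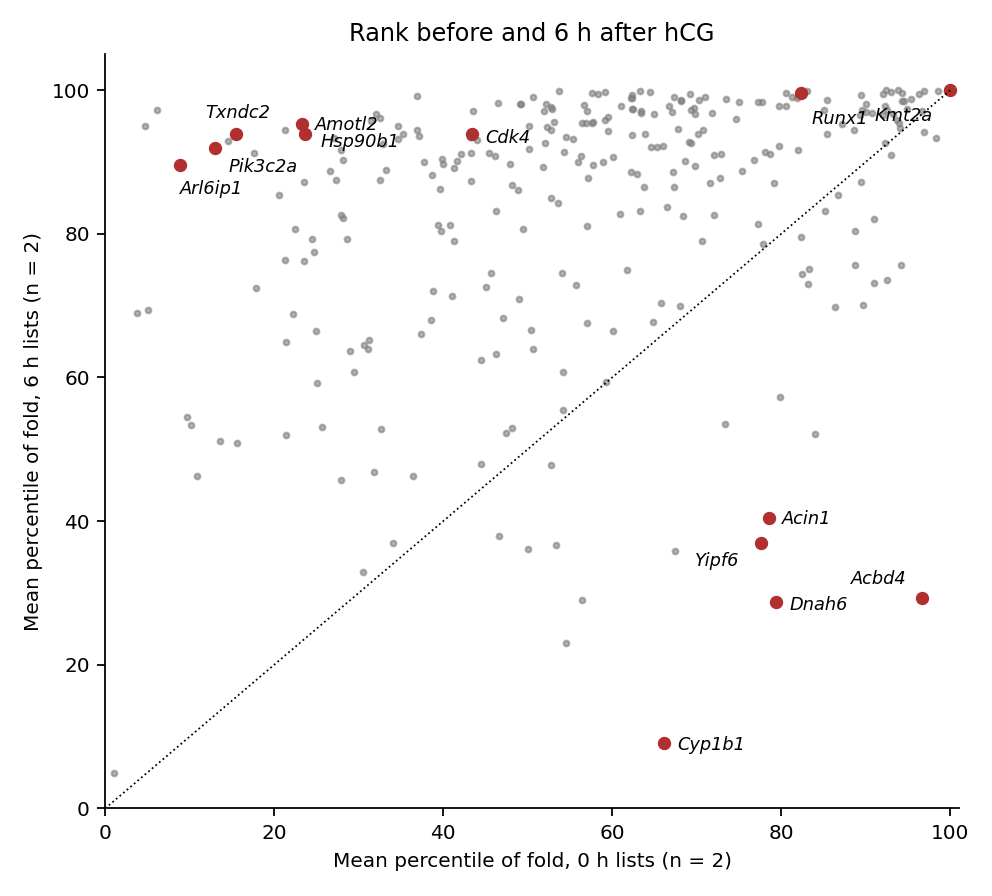
Mean percentile of fold of each of the 292 members in the 0 h lists (x axis, n = 2 libraries) and the 6 h lists (y axis, n = 2 libraries), with some named genes in red and equal rank as the dotted line. Kmt2a sits at the top of both axes, and Acbd4 (96.7 at 0 h, 29.3 at 6 h) and Cyp1b1 (66.1 and 9.11) lie far below the line.

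Runx1 itself was the member among genes of the ovulatory response and among the RUNX family and its partners. Of 20 genes in each list, 1 had a member, while 9 and 15 had any 6 h region at a gene end. The Runx1 region (chr16:92824586-92826554, 64 bp inside the gene start) had a pileup of 13.0 and 19.6 times background at 0 h against 68.1 and 109 times at 6 h. Its values did not overlap between the times, and a RUNX match of its promoter lay 25.5 bp from the summit. The granulosa and follicular list had 0 of 20 genes with a member and 7 with any 6 h region at a gene end. For scale, 294 of 21896 protein-coding genes (1.34%) had a member and 37.2% any 6 h region at a gene end. No member stood at genes of the AP-1 family (0 of 15), the immediate early list (0 of 26), the MAPK phosphatases (0 of 17), the C/EBP and nuclear receptor list (0 of 27), the actin list (0 of 42) or the clock list (0 of 20), where 13, 22, 11, 15, 32 and 16 genes had a 6 h region at a gene end. Against 1.34% of all coding genes, a count of 0 in lists of this size is near the background and is no result about the members.

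Of 33 protein folding and stress genes, 4 had a member (12.1%, against 1.34% of all coding genes) and 30 had any 6 h region at a gene end, and no test was made of these counts. Among them were Atf4 and Atf6, transcription factors of the stress response of the endoplasmic reticulum, and Hsp90b1, a chaperone of that compartment. Hsp90b1 (chr10:86704587-86706307, with an end of Ttc41) had a pileup of 10.1 and 15.8 times background at 0 h against 69.2 and 84.4 times at 6 h. Atf4 had 13.7 and 13.9 at 0 h against 77.5 and 71.7 at 6 h. At both of these the 6 h values lay above all 0 h values. Atf6 and Gm9929 share a stretch of chromosome 1 with 2 members whose summits were 951 bp apart, with a log2 difference of 2.16 at the one nearest to Gm9929 and 1.22 at the other.

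In the lists that follow, the counts are too small to tell one list from another, and the same 1.34% of all coding genes is the background. Of 59 chromatin enzymes 3 had a member: Kmt2a, and the histone demethylase genes Kdm3a and Kdm5a, the latter at a region nearest to Ccdc77. Kdm3a had a pileup of 14.4 and 19.6 at 0 h against 48.2 and 73.1 at 6 h. Of 36 cyclins, CDKs and inhibitors 2 had a member. Cdk4, which drives entry into the cycle, had 8.30 and 13.9 times background at 0 h against 77.9 and 73.1 at 6 h, and Ccnt1, the cyclin of an elongation kinase, 9.02 and 17.0 at 0 h against 75.0 and 103 at 6 h. Their log2 differences of 2.81 and 2.83 lie near the upper end of the members' range. In other lists 1 member each fell at Ski, a repressor of SMAD signalling (of 27 genes), Amotl2, which holds YAP in the cytoplasm (of 24), Rpl13a (of 82 ribosomal protein genes) and H4c8 (of 81 core histone genes), the last pair of lists at about the share of all coding genes, and 2 at Hnrnpa3 and Malat1 (of 41). Amotl2 (chr9:102717201-102718833) had 22.0 and 24.5 at 0 h against 55.4 and 81.6 at 6 h, and Ski 18.05 and 43.7 at 0 h against 49.3 and 88.6 at 6 h.

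Small RNA genes lay near some members. The classes counted were miRNA, small nuclear RNA, small nucleolar RNA, tRNA and rRNA genes. Of 1340 small nucleolar RNA genes 0 had a member, against 0.516% of all 4067 small RNA genes. An end of a small RNA gene lay within 1 kb of 19 of 292 members, or 6.51% (95% CI 3.96 to 9.97). The shares were 3.09% (2.22 to 4.17) at unreplicated 0 h binding and 3.65% (3.22 to 4.11) with no 0 h peak. The intervals overlap, and no test was made. On chromosome 11, 4 members lay within 44439 bp, at Gm22068, Rnu3b1, Rnu3b3 and Rnu3b2, all annotated as small nuclear RNA genes, the last 3 as U3. Their pileups ran from 9.75 to 14.7 times background at 0 h and from 33.0 to 69.4 at 6 h. On chromosome 12, 3 more lay within 28025 bp at Gm22634, Gm25679 and Gm22317. Such copies can share sequence, and how reads that map to several places were treated is not stated in the sources used here, so signal at 1 copy cannot be told apart from that at another. The Rn4.5s region had a pileup of 32.1 and 52.4 at 0 h against 108 and 132 at 6 h but a fold of only 3.52, 6.88, 8.99 and 10.7, as its local background was high. Without all 19 of these, 273 members were left. Of them 258 (94.5%) had both 6 h values above both 0 h values, against 91.3% of all 791 shared regions. The microRNA genes were Mir190b, Mir7655, Mir8120, Mir3075, Mir3077 beside Sap18 and Mir1945 beside Gspt1, and their regions had log2 differences from 1.47 (Mir3075) to 2.17 (Gspt1). Gm25541 beside Gm13421 had 1.38, the tRNA gene n-TNgtt14 2.15, and the tRNA group n-TGtcc4, n-TDgtc6 and n-TEctc7, the lowest in rank of all members, 1.09. At the tRNA gene n-TMcat13 the pileup was 17.0 and 27.5 at 0 h against 80.8 and 114 at 6 h.

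At the limits of the rule, the folds on either side of the width limit covered overlapping ranges. Just under 2000 bp were Runx1 at 1969 bp, Sertad3 at 1971 bp and Pde8a at 1972 bp, and just over it Vps26c at 2002 bp, Cnppd1 at 2004 bp and 1810013L24Rik at 2015 bp. The fold in 6 h replicate 1 was 37.7, 25.4 and 29.4 for the first 3 and 41.8, 30.1 and 22.8 for the others. Just inside 1 kb were Tnrc6c at 886 bp, Gm52861 at 895 bp and Shbg at 903 bp, and just outside Exoc3l2 at 1009 bp, Lrp8os3 at 1057 bp and St3gal5 at 1080 bp.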

How the data were processed

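Peak lists of 4 RUNX1 ChIP-seq libraries (single-end reads of 75 nt) were used. Reads were aligned with Bowtie2 2.2.5 to mm10 and peaks called with MACS2, per the submitters' processing notes; its version and settings are not given in the sources used here. The deposited lists give a fold enrichment, a −log10 p and a −log10 q per peak, as the authors' values, and a deposited score that was not used. Each library was called separately, and inputs, pooled by time point per the series' design, entered only through the calls.

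Pileup and local background were solved from fold, as (pileup + 1)/(background + 1), and the Poisson p-value, which found a whole-number pileup for 100% of peaks (misfit at most 0.000337, limit 0.005). The commonest background of a list was taken as its genome-wide background. A member's value in a library is that of its overlapping peak with the highest −log10 p. Genes and promoters are from RefSeq, GRCm38.p6, which is mm10. Exons, introns and UTRs were not separated. Motifs were searched on both strands. A list gene and a sequence window are not reported here.

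Members and lists were chosen with earlier results of these data known. Named genes were the 10 highest by mean percentile, the 5 largest and 5 smallest gaps between 0 h and 6 h percentiles, list genes, members nearest the limits, and those whose promoter is printed; the windows show further members, chosen after their values were seen, as were the reversed letters, the rank bands, the comparison by motif and the log2 pileup difference between times. The 6 p-values over libraries (exact permutation tests) were adjusted by Benjamini-Hochberg; that for peak width is not printed, since the rule limits width. Scripts, in Python 3.11.15 with numpy 2.4.6, pandas 2.3.3, scipy 1.17.1 and matplotlib 3.10.9, were tested on simulated data.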

Additional observations from a re-analysis of the deposited data

How the results depend on the processing

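The number of members was 292. It was 97 with peaks of a −log10 q of at least 20 and 118 with a width under 1000 bp. It ran from 304 to 1552 when 1 library was left out, the highest without 0 h replicate 1, when every peak of 0 h replicate 2 counted as a 0 h region. Under the other settings tried it was within 1.5 times of 292. The share of members nearest to a gene start ran from 69.5% to 76.5% without 1 library, again highest without 0 h replicate 1, and was 70.5% with all. Counted over the 211 member promoters within 1 kb of a summit, RUNX letters stood in 44.5%, and in 55.1% of those that held the summit. That share ran from 30.9% to 44.7% when 1 library was left out, with the lowest value without 0 h replicate 1, which has 1227 promoters.

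The members-minus-distal difference in percentile was 0.25 with a −log10 q of at least 20, against -5.39, and ran from -6.80 to -6.10 when a library was left out. The members-minus-distal difference in log2 pileup over background was -0.068 without 0 h replicate 1, over the changed set of regions, against 0.079. Under the other settings it ran from 0.0041, without 6 h replicate 1, to 0.134, with a −log10 q of at least 20, and was 0.11 without 0 h replicate 2 and 0.0059 as a mean over regions. No setting tried could give a p under 0.05, so the tests do not bear on stability. With the replicate block the difference between time points in percentile was the same 10.2 (exact permutation p = 1, over 2 pairs), and that in log2 pileup 0.26. Nothing in the labels says that a number marks a shared animal or batch. The difference in percentile ran from 7.72 to 19.5 when a library was left out, and was 2.68 with a −log10 q of at least 20. Percentile differences with minus without RUNX letters ran from 0.48 to 5.07 when a library was left out, and the time difference of log2 pileup from 0.10 to 0.41. With 2 libraries per time point, and 948 peaks in the shortest list, members could only be sites that reached the call threshold in that list.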

Other observations

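Members chosen after their values had been seen, for pathways the lists did not cover, are given here as values. The ovulatory surge signals through cyclic AMP, and members at genes of that pathway, picked by hand and from no fixed list, included the following. Prkaca, the catalytic subunit of protein kinase A, had a pileup of 9.02 and 13.9 times background in 0 h replicates 1 and 2 and of 63.4 and 97.0 times in 6 h replicates 1 and 2, with the summit 208 bp before the start. Creb1, the transcription factor that kinase phosphorylates, had 10.1 and 19.6 at 0 h against 31.5 and 60.9 at 6 h. Pde8a, a phosphodiesterase that breaks down cyclic AMP, had 23.1 and 35.8 at 0 h against 87.3 and 139 at 6 h. At each of these the 6 h values lay above all 0 h values, as at most members. These values say nothing of such genes as a group.

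Some members stood at genes of antigen presentation by MHC class I and its kin, picked by hand and from no fixed list. The region between Tap1, a peptide transporter, and Psmb9, an immunoproteasome subunit, had 28.5 and 34.7 times background at 0 h against 47.8 and 63.3 at 6 h, a log2 difference of 0.81. H2-M3 had 17.3 and 19.2 at 0 h against 25.7 and 35.2 at 6 h, and H2-D1 13.4 and 10.9 at 0 h against 25.7 and 39.4 at 6 h. Mr1 had 13.0 and 15.5 at 0 h against 12.7 and 23.9 at 6 h, which overlap. Their log2 differences were 0.81, 0.72, 1.40 and 0.30, and since the regions were picked after these values were seen, they say nothing of such genes as a group. The metallothionein genes Mt2 and Mt1, neighbours on chromosome 8, each had a member, with log2 differences of 1.54 and 1.88.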
